A study of Danio rerio with 6 samples.

Results

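The genes described here are the zebrafish hatching enzyme and cathepsin L genes, together with a few genes known from the hatching gland. They comprise 9 of the 24462 genes measured: ENSDARG00000100833 (symbol ctslb.4), he1.1, he1.2, he1.3, ctsla, ctslb, klf17, cd63 (CD63 in the gene-name table) and agr2 (AGR2 in that table). The group was chosen from the measured contrast between FBSA and control embryos, in which ctslb.4 and the hatching enzymes had stood out, and was completed by gene name. The fold changes of these 9 genes are therefore a description, with no test and no p-value. RNA came from whole embryos of the Tropical 5D wild-type line, whose chorions had been taken off 4 h after fertilization and which were harvested at 48 h. From 8 h, the FBSA group was held in 47 µM perfluorobutane sulfonamide (FBSA), a perfluorinated sulfonamide, and the control group in medium with 0 µM. Both groups had 0.5% methanol. Each group had 3 libraries of 10 pooled embryos, made with a kit that reads the 3′ ends of transcripts.

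The hatching gland of the zebrafish is a transient gland that arises from the front of the prechordal plate and comes to lie over the yolk. Its cells store granules of metalloproteases of the astacin family, the hatching enzymes, and release them to digest the chorion from inside. Cathepsin L is a cysteine protease, best known from lysosomes. RefSeq lists hgg1, for hatching gland gene, as a synonym of ctslb. The transcription factor Klf17 is known in zebrafish for the formation of the gland, the tetraspanin Cd63 is a membrane protein of late endosomes and secretory granules, and Agr2 is a protein disulfide isomerase of secretory cells.

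Libraries held 23906021 to 33356411 reads in genes. Of 16890 genes that passed a filter of 10 normalized counts in at least 3 libraries, 96 were higher and 23 lower with FBSA (limma, Benjamini-Hochberg adjusted p under 0.05). Of the 9 genes, 8 passed the filter. FBSA replicate 2 and control replicate 2 were the extremes of the first principal component, at 54.0 and −65.5. The column names of the deposited table are offset from their values by 1 cell. Read without that shift, the values taken here as control replicate 3 would bear an FBSA name, so values without this library are given where they matter.

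Both expressed hatching enzyme genes were higher with FBSA. The gene he1.1 had 26329.5, 28330.9 and 26739.7 normalized counts in the FBSA libraries, against 18770.5, 16529.1 and 18172.2 in the controls. Every FBSA library lay above every control, and the highest control was well below the lowest FBSA library. On the log2 scale he1.1 differed by 0.61 ± 0.09 SE, or 1.52-fold. For he1.2 the values were 20899.5, 14492.6 and 19945.5 normalized counts with FBSA, against 7829, 11620.8 and 10473 in the controls. The groups of he1.2 did not overlap either, but its libraries were more spread, with FBSA replicate 2 closest to the controls. Its log2 fold change was 0.89 ± 0.16 SE, or 1.85-fold. Whether such a difference comes from more gland cells or more RNA per cell cannot be told apart in whole-embryo RNA.

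**Figure D1:**
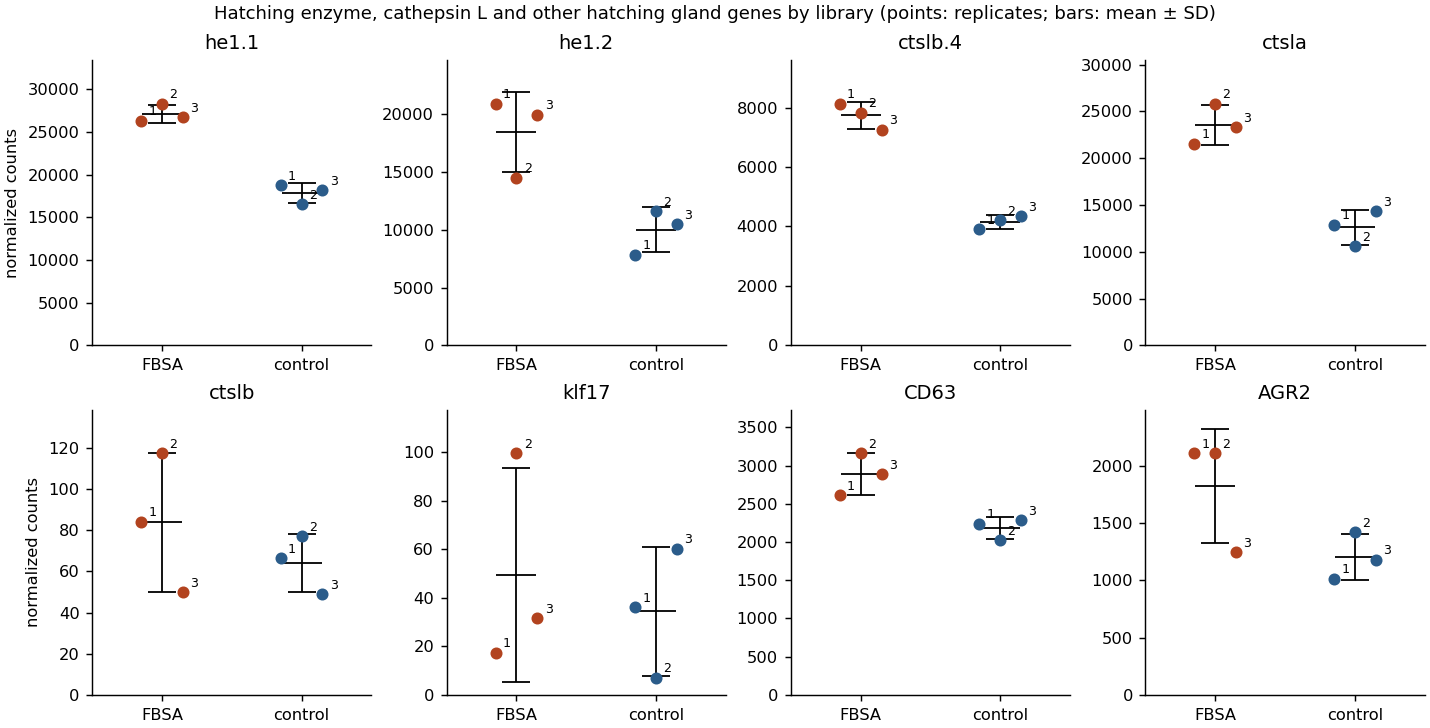
Normalized counts (y axis, linear, from 0) of the 8 genes that passed the filter, in the 3 FBSA and 3 control libraries of each gene (points, numbered by replicate), with the mean and SD as bars. The groups stand apart for he1.1, he1.2, ctslb.4, ctsla and CD63 and overlap for ctslb, klf17 and AGR2.

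RefSeq places he1.1, he1.2 and he1.3 next to each other, and reads of such related copies may match more than 1 of them. The share of he1.2 in the reads of he1.1 and he1.2 was 44.3%, 33.8% and 42.7% in the FBSA libraries and 29.4%, 41.3% and 36.6% in the controls. These shares overlapped between the groups, and their 95% Wilson intervals, which cover counting error only, reached at most 0.626 percentage points to either side. Summed over the copies, the he1 genes had 47229, 42824.5 and 46685 normalized counts with FBSA, against 26600.0, 28149.8 and 28646 in the controls. The sum varied less between the libraries of a group than he1.2 did. Its coefficient of variation was 5.27% against 18.7% in the FBSA group and 3.84% against 19.5% in the control group. That of he1.1 alone was 3.90% with FBSA, below the sum, and 6.51% in the controls, above it. For this sum the log2 fold change was 0.71 ± 0.09 SE, or 1.64-fold. The remaining copy, he1.3, had 1 read in FBSA replicate 2 and 0 reads in the other 5 libraries, where a count of 0 allows up to 2.52 to 3.56 normalized counts (3 reads per library). No fold change is given for he1.3.

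Of the cathepsin L genes chosen, ctslb.4 and ctsla were both nearly doubled. The gene ctslb.4 had 8134, 7833 and 7252 normalized counts in the FBSA libraries, against 3899, 4220.3 and 4349.7 in the controls. The libraries of each group lay close together, and the groups were far apart. The log2 fold change of ctslb.4 was 0.90 ± 0.10 SE, or 1.86-fold. For ctsla, a cathepsin L gene that lies on another chromosome than ctslb in RefSeq, the values were 21540.1, 25836 and 23304 normalized counts with FBSA and 12906, 10611 and 14322 in the controls. Its lowest library was control replicate 2 and its highest FBSA replicate 2, but no library crossed into the other group. Its log2 fold change was 0.91 ± 0.12 SE, or 1.88-fold. The third, ctslb, was low, with 84.0, 117 and 49.8 normalized counts with FBSA against 66.2, 77.1 and 48.8 in the controls. The groups overlapped, and FBSA replicate 3 stood at the level of control replicate 3. For ctslb the log2 fold change was 0.32 ± 0.35 SE, and it ran from 0.04 without FBSA replicate 2 to 0.65 without FBSA replicate 3.

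The genes ctslb.4 and ctslb belong to a run of neighbouring genes, set here by position and synonym, not by sequence. Between ctslb.4 and zgc:174153, RefSeq orders 18 genes other than long noncoding RNAs, of which 7 carry ctsl as a synonym, ctslb among them. The order is that of the RefSeq assembly GRCz12tu, not of GRCz11, the build used for these reads. Of the 18 genes, 9 were matched to the table by name, and 7 of these were not among the genes chosen. They were taken up after their values were seen, so they are described with no test. All 7 were higher in every FBSA library than in any control, as were 10.0% of all genes. In the fit across all genes 5 of the 7 passed the threshold as higher, as did 0.568% of all genes. The exceptions were si:dkey-269i1.4 and zgc:174855. Since the 7 genes were taken up with their values known and may share reads with ctslb.4, nothing is read from these counts. Over the 7 genes the log2 fold changes ran from 0.86 to 3.22, and from 0.68 to 3.51 without control replicate 3.

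The largest difference in the run was that of si:dkey-239j18.2, which has ctsl as a synonym. It had 127, 227 and 463 normalized counts in the FBSA libraries, against 27.7, 14.2 and 37.5 in the controls. The FBSA libraries differed among themselves by more than the whole range of the controls. Its log2 fold change was 3.22 ± 0.46 SE, or 9.32-fold, and 2.74 without FBSA replicate 3. On the deposited log2 scale, which compresses low counts, it was 1.41. For si:dkey-26g8.5, another gene with that synonym, the values were 1817, 2386 and 2212 normalized counts with FBSA and 849, 539.7 and 846 in the controls, a log2 fold change of 1.54 ± 0.18 SE. The gene zgc:174153 had 1383, 1486 and 1251 normalized counts with FBSA, against 404, 616 and 622 in the controls, a log2 fold change of 1.35 ± 0.17 SE. Both were more than doubled, with coefficients of variation of 23.9% and 22.7% in the controls, where 1 library of each gene lay below the other 2.

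Around a doubling lay zgc:174154, si:dkey-239j18.3 and zgc:174855. The gene zgc:174154 had 1529.8, 1823 and 1932 normalized counts with FBSA and 768, 1047 and 839 in the controls. For si:dkey-239j18.3, which stands next to ctslb and has no synonym in RefSeq, the values were 4247, 3805 and 3573 with FBSA and 2189, 1627 and 2345 in the controls. Those of zgc:174855 were 6353, 9952 and 6253 with FBSA and 4883, 4291.5 and 3145 in the controls. Their log2 fold changes were 1.00 ± 0.14, 0.93 ± 0.14 and 0.86 ± 0.19 SE. Without FBSA replicate 1, si:dkey-239j18.3 no longer passed the threshold (0.86), and without control replicate 1, zgc:174855 did (1.00). As these genes were taken up with their values known, nothing is read from these calls. Control replicate 2 stood far below the other controls for si:dkey-269i1.4, with 78.3 normalized counts against 342 and 288, while the FBSA libraries had 463, 666 and 476. Its log2 fold change was 1.41 ± 0.42 SE, and 0.75 without that library.

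**Figure D2:**
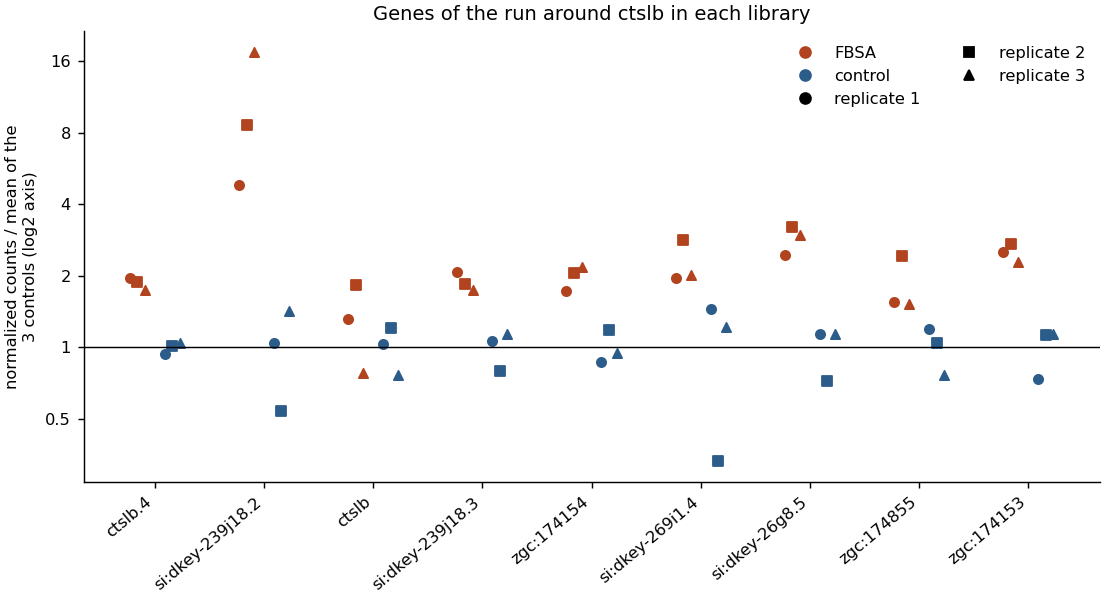
Normalized counts of the 9 measured genes of the run in each library, divided by the mean of the 3 controls of that gene (y axis, log2 scale; 1 is the control mean), with FBSA libraries left of controls and symbols by replicate. For 8 of the 9 genes all FBSA libraries lie above all controls, and for ctslb they overlap.

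Summed, the 9 genes of the run had 24139, 28295 and 23461 normalized counts in the FBSA libraries, against 13429, 12512 and 12522 in the controls. No FBSA library came near a control, and the control sums were close to each other. The log2 fold change of the sum was 0.98 ± 0.10 SE, or 1.97-fold. How reads divide among the 9 measured genes leaves this sum as it is, but the effect of reads that match the other 9 genes of the run, or that were dropped, was not tested. To the left of the run, 6 genes were matched by name to 1 identifier each and tested. All 6 overlapped between the groups, as did most genes. Names that matched more than 1 identifier were left out, ppp1r3cb and ankrd1b here and sh3bp4a and bzw1a near the he1 copies. Only 10.0% of all genes had all FBSA libraries above all controls, and 9.91% below. Other than kif20bb, the genes on the left were low, with means of 11.3 (muc13b) to 45.4 (RPP30) normalized counts with FBSA. Where the differences end along the chromosome was not tested. The gene kif20bb, with 421 ± 57.9 normalized counts with FBSA and 391 ± 68.2 in the controls (SD, n = 3 each), differed by 0.11 ± 0.18 SE on the log2 scale. The aldehyde oxidase gene aox5, beside he1.1, had 208 ± 40.3 and 148 ± 32.8 normalized counts (SD, n = 3 each) in FBSA and control libraries, which also overlapped. Of 3 genes near the he1 copies that were tested, S100B, of a calcium-binding protein, did not overlap, with 60.6, 74.2 and 69.1 normalized counts with FBSA against 36.1, 56.9 and 51.1 in the controls. It did not pass the threshold (log2 fold change 0.51 ± 0.31 SE, limma adjusted p = 0.509).

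**Figure D3:**
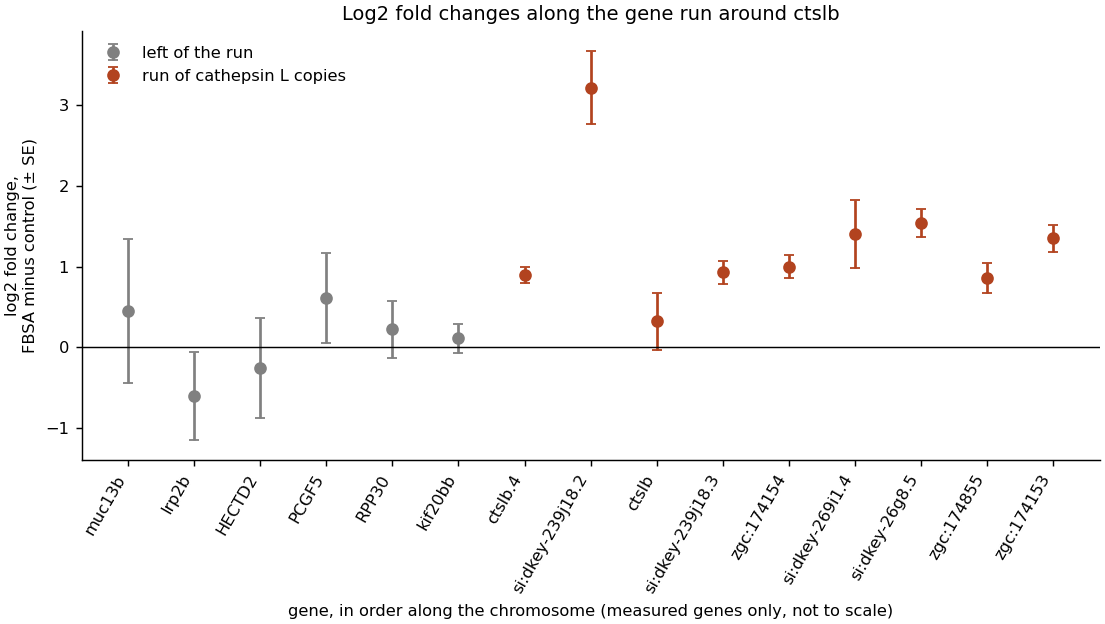
Log2 fold change, FBSA minus control, with its standard error (y axis) for the genes of the run around ctslb (red) and for 6 measured genes to the left of it (grey), in RefSeq order along the chromosome, not to scale. The genes of the run lie between 0.32 and 3.22, and those to the left between −0.60 and 0.61.

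The other genes of the gland gave a mixed picture. CD63 had 2614, 3162 and 2883 normalized counts in the FBSA libraries, against 2237, 2022 and 2287 in the controls. The groups of CD63 were apart by a small margin, and the log2 fold change was 0.40 ± 0.11 SE, or 1.32-fold. AGR2 had 2112, 2111 and 1248 normalized counts with FBSA and 1017, 1421 and 1181 in the controls. FBSA replicate 3 of AGR2 fell among the controls, while FBSA replicates 1 and 2 were nearly equal and above all of them. AGR2 had a log2 fold change of 0.57 ± 0.19 SE with all libraries and 0.82 without FBSA replicate 3. For klf17, which is active early in the gland, only 6 to 106 reads were counted per library. Its values were 17.3, 99.5 and 31.5 normalized counts with FBSA and 36.1, 7.12 and 60.2 in the controls, overlapping throughout. The log2 fold change of klf17 was 0.57 ± 0.75 SE and turned to −0.11 without FBSA replicate 2 and to −0.28 without control replicate 2, so the data gave it no direction.

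All 8 genes tested had log2 fold changes above 0, and their median was 0.59, where the median of all 16890 genes was −0.0009 and 49.8% were positive. In 5 of the 8 all FBSA libraries lay above all controls, which was so for 10.0% of all genes, while 9.91% had all FBSA libraries below. In the fit across all genes, 4 of the 8, he1.1, he1.2, ctslb.4 and ctsla, passed the threshold as higher and 0 as lower, where 0.568% of all genes were higher and 0.136% lower. Since this contrast chose the genes, nothing is read from these counts, nor from the calls with a library left out that follow. Without control replicate 3 the log2 fold changes were 0.93 for ctslb.4, 1.01 for ctsla and 0.62 for he1.1. The calls of ctslb.4, ctsla and he1.1 were kept without each library in turn. For he1.1 the call was close to the threshold without FBSA replicate 1 or control replicate 3. That of he1.2 was lost without control replicate 1, control replicate 3, FBSA replicate 1 or FBSA replicate 3, with log2 fold changes of 0.72, 0.93, 0.79 and 0.82, and AGR2 passed without FBSA replicate 3.

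**Figure D4:**
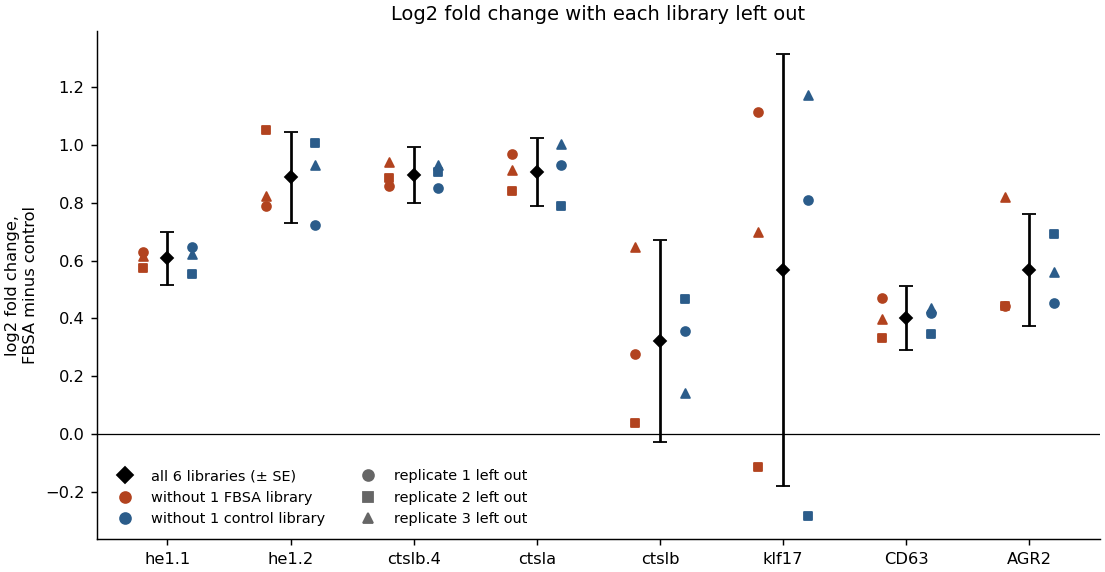
Log2 fold change, FBSA minus control (y axis), of the 8 tested genes with all 6 libraries (black, ± SE) and with each library left out in turn (red for an FBSA library, blue for a control, symbols by replicate). Those of he1.1, he1.2, ctslb.4 and ctsla stay at or above 0.55 in each case, and those of klf17 lie between −0.28 and 1.17.

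Within groups, he1.1 and ctslb.4 varied little, with coefficients of variation of 3.90% and 5.79% in FBSA libraries and 6.51% and 5.59% in controls. Over the 2636 genes whose mean was at least 1000 normalized counts, the median was 7.97% in FBSA libraries and 9.09% in controls. Of the described genes at that level, he1.2, AGR2 and ctsla were above that median in both groups, with 18.7%, 27.3% and 9.16% in FBSA libraries and 19.5%, 16.8% and 14.8% in controls. The most variable was klf17, with 88.9% and 77.1%, at its low counts.

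Among 14 genes for other cathepsins, counting the cathepsin-processing protease legumain, 0 passed the threshold with limma and 0 with limma-voom, by which 0.533% of all genes were higher. At an unadjusted p under 0.05, 7 were higher and 0 lower with limma, where 7.34% of all genes were higher and 6.25% lower at that level. Of the 14, 12 had a positive log2 fold change, and the median was 0.54. CTSD, the aspartic protease of lysosomes, had 2541, 3335 and 3487 normalized counts in the FBSA libraries, against 2229, 1739 and 2713 in the controls, and overlapped between the groups (log2 fold change 0.50 ± 0.16 SE, limma adjusted p = 0.21). The cysteine cathepsin ctsf had 1946 ± 69.7 normalized counts with FBSA and 2027 ± 94.1 in the controls (SD, n = 3 each), a log2 fold change of −0.06 ± 0.10 SE. CTSA, the carboxypeptidase of lysosomes, named here after its values were seen, was nearest to the threshold of the list (log2 fold change 0.73 ± 0.17 SE, limma adjusted p = 0.0752). No FBSA library of CTSA, at 1052, 1382 and 927 normalized counts, reached down to the controls, at 734, 566 and 704. The 14 genes include ctsl.1, by its name a cathepsin L gene outside the genes chosen. It was low, with means of 47.9 normalized counts with FBSA and 28.0 in the controls, and overlapped between the groups. It did not pass (log2 fold change 0.77 ± 0.49 SE, limma adjusted p = 0.529).

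Cystatins, the inhibitors of cysteine cathepsins, gave no call among 4 tested, with 0 at an unadjusted p under 0.05 by limma and 0 calls by limma-voom. The most abundant, cst14a.2, had 1451 ± 199 normalized counts with FBSA and 1185 ± 115 in the controls (SD, n = 3 each; log2 fold change 0.29 ± 0.13 SE). Among 11 other metalloproteases of the astacin family that the table holds, 3 passed the filter, and 0 of these passed the threshold, had an unadjusted p under 0.05 or were called by limma-voom. All 3 had a negative log2 fold change. They included npsn (nephrosin), with 268 ± 24.9 normalized counts with FBSA and 311 ± 34.0 in the controls (SD, n = 3 each; log2 fold change −0.21 ± 0.17 SE). The meprin genes were among the 8 that did not pass the filter.

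Of 10 regulators of the prechordal plate and hatching gland 0 passed with limma or with limma-voom, and the median log2 fold change was 0.16. At an unadjusted p under 0.05 (limma), where 7.34% of all genes were higher and 6.25% lower, 1 was higher and 0 lower. That gene was XBP1, a transcription factor of secretory cells, with 11581, 12633 and 11384 normalized counts in the FBSA libraries, against 10112, 9668 and 10462 in the controls (log2 fold change 0.23 ± 0.09 SE, limma adjusted p = 0.28). The groups of XBP1 were apart, by a small step. OTX2, a transcription factor of the anterior embryo, had 2100.0 normalized counts on average with FBSA and 1805 in the controls, a log2 fold change of 0.22 ± 0.12 SE. Of 35 secretory pathway genes of the endoplasmic reticulum 0 passed with limma or with limma-voom, and the median was −0.11. At an unadjusted p under 0.05 (limma) 3 were higher and 5 lower, beside 7.34% and 6.25% of all genes. SSR2 and SEC61G, of the machinery that takes proteins into the endoplasmic reticulum, had log2 fold changes of 0.11 ± 0.09 and 0.20 ± 0.09 SE. The chaperone HSPA5, named after its values were seen, had 3869 normalized counts on average with FBSA and 5210.3 in the controls (log2 fold change −0.43 ± 0.10 SE, limma adjusted p = 0.0968).

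Tetraspanins, the family of CD63, had 2 of 10 genes past the threshold, both higher, where 0.568% of all genes were higher and 0.136% lower. The median log2 fold change of the 10 was 0.14. At an unadjusted p under 0.05 (limma) 3 were higher and 1 lower, beside 7.34% and 6.25% of all genes. The lower gene was cd9a, named after its values were seen (log2 fold change −0.41 ± 0.18 SE, limma adjusted p = 0.351). The gene cd9b rose to 3052, 4562 and 3317 normalized counts with FBSA, against 2156, 1607 and 2026 in the controls (log2 fold change 0.91 ± 0.16 SE, limma adjusted p = 0.0199). The gene tspan36, known from pigment cells, rose to 2566, 3765 and 2912 normalized counts, against 1885, 1782 and 1858 in the controls (log2 fold change 0.72 ± 0.13 SE, limma adjusted p = 0.0292). For both, the highest library was FBSA replicate 2. Without it their log2 fold changes were 0.73 and 0.57 and neither passed (limma, adjusted p 0.0595 for cd9b and 0.0851 for tspan36). The call of cd9b was also lost without control replicate 3 (0.95), and that of tspan36 without control replicate 1, 2 or 3 or FBSA replicate 3 (0.70 to 0.76). Neither passed with total-read scaling (limma, adjusted p 0.0559 for cd9b and 0.0686 for tspan36) or with the replicate number as a block (0.109 and 0.102). CD81 (ENSDARG00000036080), a tetraspanin with a mean of 17158 normalized counts with FBSA and 14674 in the controls, did not pass (log2 fold change 0.22 ± 0.09 SE). Of 25 lysosome genes 0 passed with limma or with limma-voom, and the median was 0.03. At an unadjusted p under 0.05 (limma) 2 were higher and 0 lower, beside 7.34% and 6.25% of all genes. PSAP, the precursor of the saposins, had 13614, 14043 and 14252 normalized counts with FBSA and 10792, 11200 and 10310 in the controls. The log2 fold change of PSAP was 0.38 ± 0.09 SE (limma adjusted p = 0.0829). That of NPC2 (ENSDARG00000090912), a cholesterol carrier of lysosomes, was 0.62 ± 0.42 SE. NPC2 had 2313, 2283 and 1926 normalized counts with FBSA and 2587, 534 and 2031 in the controls. Its groups overlapped, with control replicate 2 far below the other libraries.

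**Figure D5:**
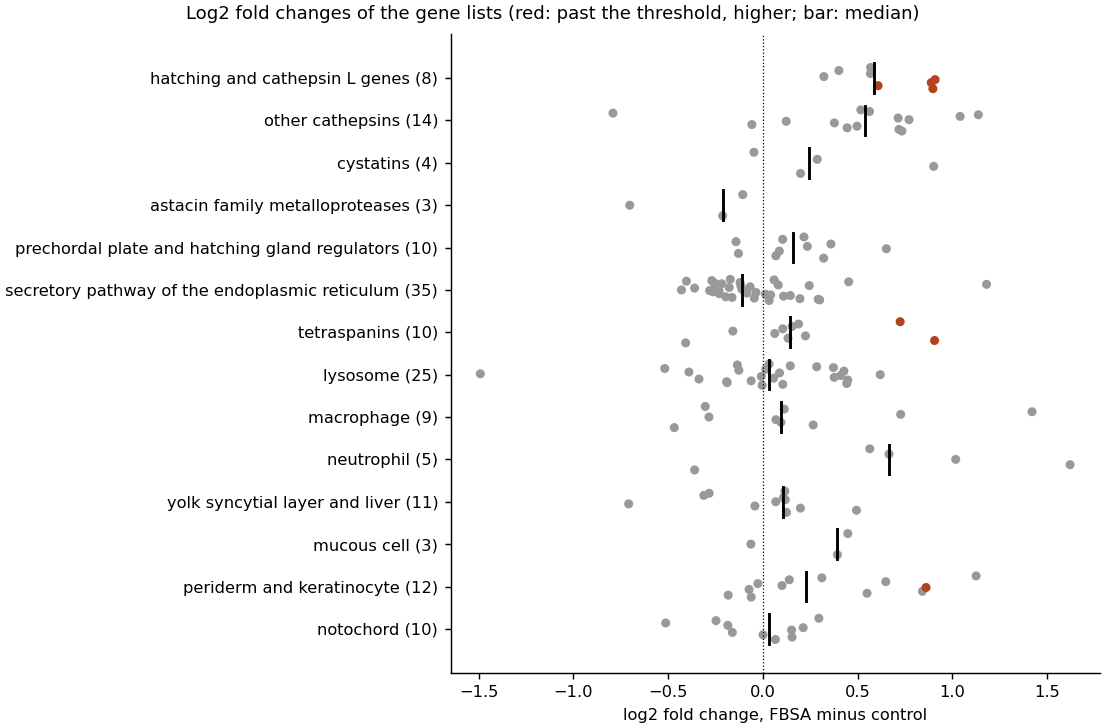
Log2 fold change, FBSA minus control (x axis), of each tested gene (points) in the hatching and cathepsin L genes and in 7 gene lists and 6 marker lists, with the number tested in brackets, red where the gene passed the threshold as higher and a bar at the list's median. Points past the threshold outside the top row are cd9b, tspan36 and krt92, while the other cathepsins have a median of 0.54 with none past it.

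Cathepsins and AGR2 are also made by other cells, and the levels of marker genes for those cells were measured in the same libraries. The 7 hatching gland markers are all among the genes chosen here, so their sum describes those genes and is no separate evidence. They summed to 48314 to 52056 normalized counts with FBSA and 29956 to 32223 in the controls. Most of these sums is he1.1 and he1.2. Summed macrophage markers, 19 genes, were 1315 to 1543 with FBSA and 1241 to 1317 in the controls, and neutrophil markers, 5 genes, 4289 to 4575 and 4222 to 5262. Both overlapped, as did mucous cell markers (4 genes, 777 to 1141 and 659.9 to 977), periderm and keratinocyte markers (12 genes, 594696 to 737910 with FBSA and 610644 to 683976 in the controls) and notochord markers (10 genes, 32336 to 35859 and 28378 to 36864). The keratin genes krt4 and cyt1 make up most of the periderm and keratinocyte sums, and lyz most of the neutrophil sums. Most of the mucous cell sums is muc5.1, and most of the notochord sums is COL2A1. The identifiers of COL2A1 differed in sign, with log2 fold changes of 0.30 ± 0.19 SE (ENSDARG00000069093) and −0.25 ± 0.13 SE (ENSDARG00000011407). The largest part of the macrophage sums is MFAP4 (ENSDARG00000088745), with means of 824 with FBSA and 686 in the controls (log2 fold change 0.27 ± 0.12 SE). These sums therefore say little on the other markers of those lists. The 12 markers of the yolk syncytial layer and liver did not overlap, at 344788 to 366071 with FBSA and 305473 to 334155 in the controls, and included the apolipoprotein genes apoa2 (log2 fold change 0.20 ± 0.09 SE), apoa1a (0.12 ± 0.10 SE) and apoa1b (0.49 ± 0.26 SE). Of these, apoa1b had 49121, 50069 and 49135 normalized counts with FBSA and 48313, 19478 and 46019 in the controls, with control replicate 2 far below the other libraries. Of the 11 markers of this list that were tested, 7 had a positive log2 fold change. Negative were apoa4b.2 (−0.71 ± 0.33 SE), MTTP (−0.31 ± 0.20 SE), RBP4 (−0.28 ± 0.12 SE) and apoa4b.1 (−0.04 ± 0.15 SE). The part of these markers in the cathepsin values was not tested. In none of these lists was a marker at 0 in all 6 libraries.

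By single genes, 0 of 9 macrophage, 5 neutrophil, 11 yolk and liver, 3 mucous cell and 10 notochord markers tested passed with limma, and 0 with limma-voom. At an unadjusted p under 0.05 (limma), 6 periderm and keratinocyte markers were higher and 0 lower. On the neutrophil list 3 were higher and 1 lower. In addition, 1 yolk marker and 1 notochord marker were lower, and 0 of the others passed this level. Over all genes, 7.34% were higher and 6.25% lower at that level. The 6 periderm and keratinocyte markers were krt92, epcam (log2 fold change 1.12 ± 0.29 SE), krt17 (0.84 ± 0.20 SE), icn (0.65 ± 0.17 SE), krt8 (0.55 ± 0.11 SE) and TP63 (0.31 ± 0.10 SE). In all 6 every FBSA library lay above every control, as in 10.0% of all genes. For epcam and icn, control replicate 2 lay far below control replicates 1 and 3. It had 860 normalized counts against 1953 and 2427 for epcam, and 21397 against 36836 and 37238 for icn. Of the 12 periderm and keratinocyte markers, 8 had a positive log2 fold change. On the neutrophil list, the genes at this level were MMP9 (1.62 ± 0.63 SE), mmp13a (1.02 ± 0.35 SE) and nccrp1 (0.67 ± 0.19 SE), higher, and lyz (−0.36 ± 0.15 SE), lower. Of the 7 symbols of that list, mpx and cpa5 had no match by name. How specific the matched genes are to neutrophils was not tested. The periderm keratin krt92 rose to 2444 ± 731 normalized counts with FBSA, against 1309 ± 92.0 in the controls (SD, n = 3 each). Its log2 fold change was 0.86 ± 0.18 SE (limma adjusted p = 0.0493), the 1 of 12 periderm and keratinocyte markers to pass. That call was lost without each library in turn except FBSA replicate 3, with log2 fold changes from 0.64 to 0.90, and with limma-voom, which called krt8 in its place. It was also lost with a pseudocount of 0.5, a filter of 50 normalized counts, total-read scaling, the replicate block and robust moderation (limma adjusted p from 0.0517 to 0.0854). The keratin krt4, with 315152 ± 33528 and 327927 ± 15983 normalized counts in FBSA and control libraries (SD, n = 3 each), had −0.06 ± 0.11 SE. The mucin muc5.1 had 972, 1027 and 629 normalized counts with FBSA and 542, 802 and 638 in the controls, with FBSA replicate 3 among the controls, as for AGR2.

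Likeness of pattern was measured as the root mean square difference of the log2 values over the 6 libraries, each gene centred on its mean. It was taken among 9507 genes that averaged at least 100 normalized counts and had a symbol other than a placeholder. Of the run around ctslb, only ctslb.4 itself met these limits. Nearest to ctslb.4 were PRIMPOL at 0.066, STK35 at 0.096, FOXN4 at 0.109, agbl1 at 0.111 and gemin6 at 0.115. PRIMPOL had 198, 199.9 and 179.9 normalized counts in the FBSA libraries, against 93.9, 92.5 and 102 in the controls. Nearest to he1.1 were RIMKLA at 0.060, the claudin gene cldn3c at 0.061 and UBE2C at 0.062, and nearest to he1.2 were TCIM at 0.083, DDX11 at 0.132 and JPH2 at 0.179. With 3 libraries a group, a gene with a like shift between the groups and little spread comes near by construction.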

How the data were processed

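The authors deposited log2 values for 24462 Ensembl genes in 6 libraries, and 22817 identifiers had a symbol in the gene-name table. The submitters' processing notes name STAR, HTSeq and DESeq2 and the build GRCz11. Tool versions, and how reads with several matches were counted, are not given in the sources used here. All columns share a floor of 6.516. Inverting the variance-stabilising form of the values gave whole reads divided by 1 factor per library (100.0% of values within 0.1 of a whole number), with 23906021 to 33356411 reads per library. Recovery and fit were tested on simulated data. Normalized counts with a pseudocount of 1 were fitted with limma 3.58.1 in R 4.3.3 (group as the only term, trend, two-sided, Benjamini-Hochberg adjustment over 16890 genes). Each library is a pool of its own per the labels, but the clutches are not named, and p-values cover only the spread between pools. Libraries of 1 group differed by more than sampling noise (chi-square divided by its degrees of freedom, 10.8 to 34.1).

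The genes and lists were chosen with earlier results of these data known. List symbols were matched by name, or in capitals without a paralogue suffix, which can add paralogues. Named list genes are those past the threshold (at most 4) and the 2 most abundant of each list. Other list genes were named after their values were seen. Alternatives covered the pseudocount, filter, scaling, deposited log2 values, limma-voom, robust moderation, a replicate block, summed copies and leaving out each library. No promoter or protein sequence was used here, and the promoter motifs foreseen were not searched. Recovery and figures used Python 3.11.15, pandas 2.3.3 and matplotlib 3.10.9.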

Additional observations from a re-analysis of the deposited data

How the results depend on the processing

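In all, 119 genes passed the threshold, 4 of the described genes among them. With the replicate number as a block, 47 genes passed (40 higher, 7 lower), 2 of the described genes (ctslb.4 and ctsla) and 0 list genes. The numbers share no stated batch, the deviations of equal numbers correlated at 0.02, −0.14 and −0.005, and 0 of 6 libraries correlated best with their own number, so the block is not read as a pairing. Leaving out each library gave 53 to 102 genes (53 without control replicate 3, 57 without FBSA replicate 1, 58 without FBSA replicate 2), 3 to 4 of the described genes and 0 to 2 of the list genes other than markers, against 2 with all libraries. With total-read scaling 0 list genes passed. For klf17, not past the threshold, the sign turned when control replicate 2 (−0.28), FBSA replicate 2 (−0.11) or both (−0.96) were left out, the last an alternative added after seeing the data. With robust moderation he1.2 was not past the threshold, and with limma-voom si:dkey-239j18.2 was not. The log2 fold changes ran from 0.85 to 0.94 for ctslb.4, 0.52 to 0.65 for he1.1, 0.72 to 1.17 for he1.2 and 0.72 to 1.01 for ctsla over all alternatives other than summed copies. The call of he1.1 was lost under the block. No value for he1.3 passed a filter. The causes were not tested. The deposited log2 values, which compress low counts by construction, gave 1.41 for si:dkey-239j18.2, 0.91 for si:dkey-269i1.4, 0.14 for ctslb and 0.16 for klf17. The sum over the run was also added after seeing the data. Low counts limit ctslb and klf17.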
